A study of Mus musculus with 127 samples.

Results

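The genes of the constitutive proteasome were followed in blood stem and progenitor cells of mice exposed to bacterial ligands in culture. They were taken by symbol: every Psma, Psmb, Psmc or Psmd symbol that ends in a number, without the immunoproteasome genes Psmb8, Psmb9 and Psmb10. This gave 36 genes of the 23366 symbols measured. By role they were 7 subunits of the alpha ring (Psma1 to Psma7), 7 of the beta ring (Psmb1 to Psmb7), 6 ATPases (Psmc1 to Psmc6), 11 non-ATPase subunits (Psmd1, Psmd2, Psmd3, Psmd4, Psmd6, Psmd7, Psmd8, Psmd11, Psmd12, Psmd13 and Psmd14), 3 assembly chaperones that carry subunit-like symbols (Psmd5, Psmd9 and Psmd10), and 2 paralogs known from other tissues, Psma8 from testis and Psmb11 from thymus.

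The proteasome is the protease that degrades proteins tagged with chains of ubiquitin. Its core is a barrel of alpha rings, which gate the entrance, around beta rings, in which Psmb5, Psmb6 and Psmb7 carry the catalytic sites. A regulatory particle sits on the barrel: its ATPases unfold the substrate and thread it into the core, and its non-ATPase subunits bind ubiquitin, cut the chain off and hold the particle together. Toll-like receptor signalling uses the proteasome to remove the inhibitors of NF-kB, and haematopoietic stem cells are known for a low rate of protein synthesis and a close control of protein quality.

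Bulk libraries were made by SMART-seq2, which copies whole polyadenylated transcripts from little RNA. Cells were sorted by surface markers from mouse bone marrow into LT (long-term haematopoietic stem cells), ST (their short-term counterpart) and MPP (multipotent progenitors). A stimulated course followed young mice 1, 2 and 3 and old mouse 2. Their cells received 2 ligands in culture, LPS (lipopolysaccharide, read by Tlr4) at 100 ng/ml and the lipopeptide Pam3csk4 (read by Tlr2 and its partners) at 1 µg/ml, and were sampled at 0, 0.5, 1, 2, 4, 8 and 12 h. An unstimulated course followed young mouse 4 and old mouse 4, whose cells stayed in that medium with no ligand and were sampled at 0, 2, 4 and 8 h. No genetic change is labelled in any group, strain is not labelled, and ages are given only as young or old. All 0 h libraries were read as baseline, although those of young mice 1 and 2 and most of old mouse 2 carry the treatment label. Each mouse stands for itself at all its times, so the course and the mice cultured in it cannot be told apart.

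Technical repeats were summed to 108 libraries (75 young, 33 old) of 1 mouse, cell type and time, with 990801 to 11764630 counts (median 4.201 in units of 1e6) and 6241 to 14096 genes detected. Stimulated libraries were deeper: their median in the same unit was 4.267 against 1.935 for unstimulated LT, 4.876 against 2.169 for ST and 4.623 against 2.355 for MPP. Of 6 stem cell markers the summed level at 0 h had a median of 379 CPM (counts scaled to a library of 1e6) in LT, 447 CPM in ST and 168 CPM in MPP. Of 3 progenitor markers (Cd34, Flt3, Cd48) it was 232, 657 and 1199 CPM in the same order. Neutrophil granule transcripts (6 markers, all detected in every cell type) stood apart by mouse: their summed level was 24.8 to 2004 CPM in young mouse 3 and 5640 to 78555 CPM in the other 5 mice. In bulk RNA, fewer cells of a type and less RNA per cell cannot be told apart.

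Detection is given over all 108 libraries. Of the 34 members other than Psma8 and Psmb11, chaperones included, 27 were above 0 in every library. Of their 3672 values 14 were 0, and 10 of these fell in the 9 libraries with fewer than 8000 detected genes. Across the 18 libraries at 0 h (6 mice, 3 cell types) the coefficient of variation of these genes ranged from 16.2% for Psmb1 to 45.0% for Psmd10, with a median of 23.2%. Levels between genes were compared per kilobase of coding transcript (median GENCODE M21 length). Core subunits lay highest: Psma7, an alpha subunit, had 299.8 ± 71.7 CPM per kb and the catalytic subunit Psmb6 had 247 ± 43.9 (SD, n = 18 libraries). Psma1 followed at 224, Psma6 at 213, Psmb2 at 189 and catalytic Psmb5 at 186 CPM per kb. Each of these 6 differed from the next by less than its SD. The median per kb was 157 for the alpha ring, 176 for the beta ring, 96.9 for the ATPases, 88.8 for the non-ATPases and 20.3 for the chaperones.

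Within the rings the range was wide. The third catalytic subunit, Psmb7, had 54.6 CPM per kb, the lowest of the beta ring. Psmb7 shares 253 exon bases with the antisense gene Nek6, 1 of 8 members whose exons overlap another gene (6 of them antisense), and whether reads were counted by strand is not given in the sources used here. Psmb5, Psmb6 and Psmb7 also have named pseudogenes, 4 in all, so part of their reads may have been assigned elsewhere. The chaperones lay below every particle subunit: Psmd10 had 28.5, Psmd5 20.3 and Psmd9 19.6 CPM per kb. Psma8 had 6.65 CPM per kb, and Psmb11, the thymus subunit, had 0.152.

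**Figure D1:**
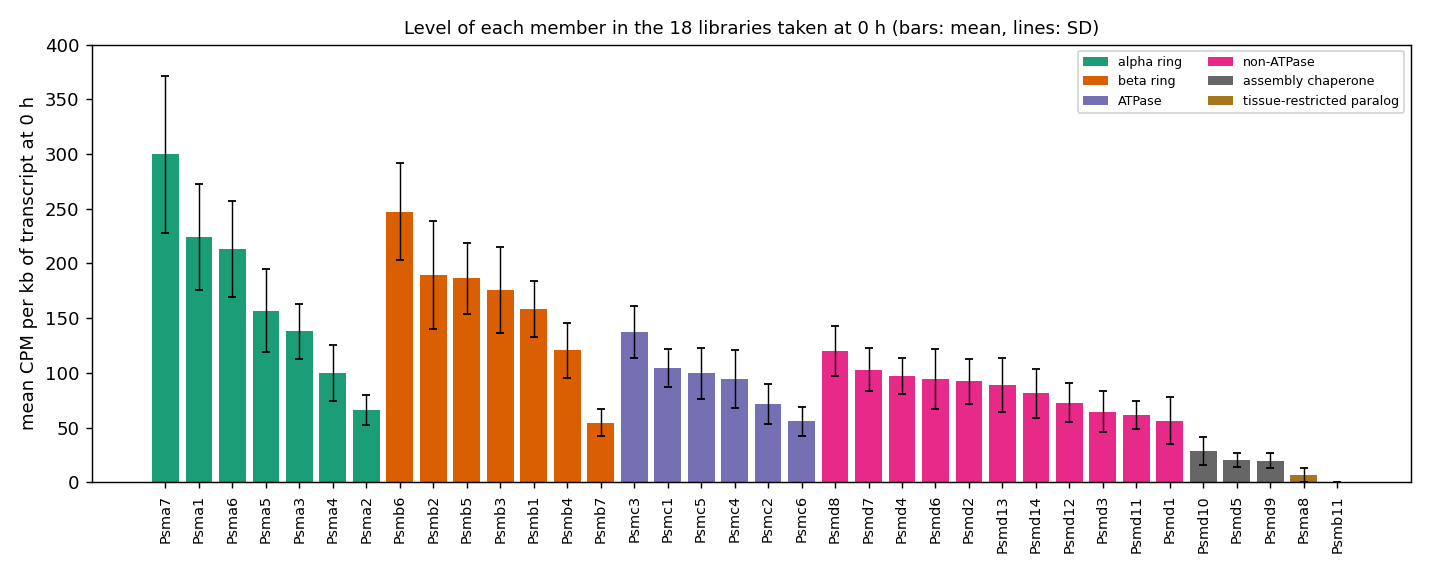
Level at 0 h of the 36 members in CPM per kilobase of transcript, ordered by role; bars are means over 18 libraries and lines are SD. Psma7 (299.8) and Psmb6 (247) are the tallest, the 3 chaperones lie between 19.6 and 28.5, and Psma8 and Psmb11 are near the axis.

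No member was told apart between the cell types at 0 h. In 4 young mice, 0 of 35 tested members passed (adjusted p under 0.05, edgeR's quasi-likelihood test over all genes) for LT against MPP, where 0% of 11568 genes passed. The same held for ST against MPP (0% of all genes) and for LT against ST (0%). Unadjusted p was under 0.05 for 1 member in LT against MPP, 0 in ST against MPP and 1 in LT against ST. Over all genes the share at such a p was 2.65%, 1.00% and 2.79%. DESeq2 and limma voom called 0 members in each. Apart from Psma8, which had few counts and a difference of 1.10 ± 1.52, the largest difference of LT against MPP was in the chaperone Psmd9, with 72.4 ± 14.4 CPM in LT against 38.1 ± 10.9 CPM in MPP (SD, n = 4 mice each). Those groups did not overlap, and the log2 difference was 0.94 ± 0.37 (SE, adjusted p = 1). Psmd5, another chaperone of the ATPase ring, had 119 ± 40.6 CPM in LT against 72.7 ± 9.86 CPM in ST (log2 difference 0.73 ± 0.27, adjusted p = 1), with overlap.

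Among the particle subunits, the ATPase Psmc4 had 99.2 ± 39.6 CPM in ST against 153 ± 41.3 CPM in MPP, and the lid subunit Psmd6 had 97.5 ± 8.48 CPM in ST against 145 ± 40.1 CPM in MPP. Psmb3, a beta subunit, and Psmd1, the scaffold that holds the ATPase base, were at 110 ± 28.6 and 137 ± 33.1 CPM in LT, against 149 ± 19.9 and 178 ± 14.3 CPM in MPP. Psmd4, a ubiquitin receptor, and the ATPase Psmc3 were at 113 ± 29.8 and 199 ± 39.2 CPM in LT, against 149 ± 25.7 and 250 ± 54.4 CPM in ST. All of these pairs overlapped between mice. Over the 35 members the median log2 difference was -0.08 for LT against MPP, -0.19 for ST against MPP and 0.11 for LT against ST, beside -0.03, 0.01 and -0.02 over all genes.

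Age made no detectable difference at this number of mice, 2 old against 4 young. In LT 0 of 35 members passed for old against young (0% of 12983 genes), as in ST (0%) and MPP (0%). Unadjusted p was under 0.05 for 0, 1 and 0 members in that order, and for 3.39%, 4.24% and 0.431% of all genes. DESeq2 and limma voom called 0 members. Summed over all 36 members, the level in LT was 5537 ± 759 CPM in old mice against 5323 ± 757 CPM in young mice. In ST it was 5795 ± 347 CPM in old against 4946 ± 540 CPM in young mice, and in MPP 5933 ± 255 CPM in old against 5570 ± 399 CPM in young mice. Psmd1 in ST had the largest positive difference of that cell type, at 278 ± 180 CPM in old against 141 ± 19.3 CPM in young mice (log2 0.97 ± 0.36, adjusted p = 1). It rested on old mouse 4 at 405 CPM, while old mouse 2 had 150 CPM. Psmd6 in ST had 157 ± 36.3 CPM in old against 97.5 ± 8.48 CPM in young mice, without overlap (log2 0.66 ± 0.33, adjusted p = 1). In MPP, Psma1, an alpha subunit, had 306 ± 8.43 CPM in old against 256 ± 36.1 CPM in young mice, and Psmd5 had 71.1 ± 1.96 CPM in old against 90.1 ± 12.8 CPM in young mice, both without overlap and with an adjusted p of 1.

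With ligand the summed transcript level of the 36 members was, on average, at or below its 0 h value over the first hour and above it from 4 h. In LT of young mice 1, 2 and 3 its mean was 5402, 5328, 5183, 5752, 6112, 6319 and 5869 CPM at 0, 0.5, 1, 2, 4, 8 and 12 h. In ST it was 4983, 4877, 4704, 5826, 6167, 6112 and 6186 CPM at those times. In MPP it was 5666, 4979, 4850, 5332, 6087, 6390 and 6829 CPM. The spread between mice was of the size of these shifts: the SD at 0 h was 907 CPM in LT, 655 CPM in ST and 427 CPM in MPP, and at 12 h 756, 2059 and 957 CPM. Within each mouse the mean of 4, 8 and 12 h (called late from here on) lay above 0 h by a log2 change of 0.25, 0.13 and 0.15 in LT of young mice 1, 2 and 3. In ST the change was 0.29, 0.45 and 0.10, and in MPP 0.0011, 0.23 and 0.30. Only MPP of young mouse 1 showed next to no change.

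**Figure D2:**
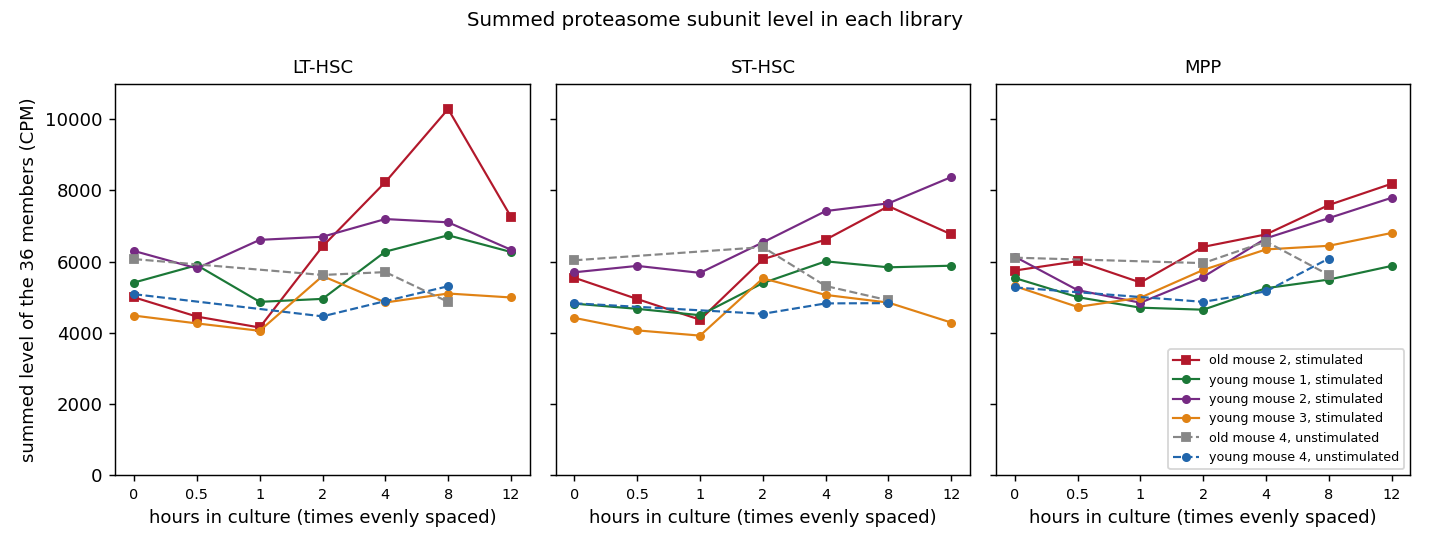
Summed level of the 36 members in CPM by time, 1 panel per cell type and 1 line per mouse, solid with ligand and dashed without; sampling times are evenly spaced on the axis. Old mouse 2 LT reaches 10287 CPM at 8 h, the highest library, and no library of the unstimulated mice exceeds 6566 CPM.

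The mean of 0.5 and 1 h was then set against 0 h. In MPP, 22 of 35 tested members had a lower mean of 0.5 and 1 h than 0 h in all 3 young mice, where 31.2% of all genes did. In LT 7 members did (20.1% of all genes) and in ST 7 (23.1%). The median log2 change of the members in MPP was -0.21, -0.27 and -0.13 in young mice 1, 2 and 3, beside -0.15, -0.12 and -0.20 over all genes. In young mouse 3 the members lay above the median of all genes. In old mouse 2 the members' median was -0.22 in LT, -0.36 in ST and -0.02 in MPP, beside -0.26, -0.26 and -0.15 over all genes. These early values are given as a description, without a test.

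At 2 h, 0 members passed in any cell type of the young mice (edgeR). The share of all 13678 genes that passed was 0.307% in LT, 0.307% in ST and 0.263% in MPP. Unadjusted p was under 0.05 for 2 of 35 members in LT, 2 in ST and 1 in MPP, and for 9.54%, 6.80% and 3.19% of all genes. DESeq2 called 0 members, and limma voom with sample quality weights called 0 in LT, 0 in ST and 2 in MPP (Psmd8 and Psmd11, both higher), where it called 12% of all genes. The members with the largest positive changes in LT were Psmd14, the deubiquitinase of the lid, at 231 ± 76.6 CPM at 2 h against 122 ± 58.0 CPM at 0 h, and the ATPase Psmc2, at 178 ± 57.3 against 101 ± 34.4 CPM (SD, n = 3 mice). In ST they were Psmc4, at 197 ± 35.7 CPM at 2 h against 99.4 ± 48.6 CPM at 0 h, and the lid subunit Psmd11, at 221 ± 11.9 against 125 ± 15.5 CPM, both without overlap. Psma7 and Psma4 lay lower in MPP, at 192 ± 26.3 and 76.1 ± 23.2 CPM at 2 h against 328 ± 63.9 and 133 ± 19.6 CPM at 0 h, also without overlap. In LT the largest negative change at 2 h was in the chaperone Psmd9 (log2 -2.66).

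At 8 h, by edgeR, 0 of 35 members passed in LT (0.285% of all genes), ST (0.263%) and MPP (0.314%), with an unadjusted p under 0.05 for 4, 3 and 1 members and for 11.3%, 7.91% and 4.15% of all genes. DESeq2 called 2 members higher in LT, Psma1 and Psmd4 (5.78% of all genes), and 0 in ST and MPP. Limma voom called 0 in LT and ST and 5 in MPP, 4 of them higher (12.9% of all genes). The median log2 change of the members was 0.33 in LT, 0.44 in ST and 0.30 in MPP, beside -0.37, -0.26 and -0.21 over all genes. In LT this median was -0.08 when the libraries with fewer than 8000 detected genes were left out. That left young mouse 3 alone at 8 h beside the 0 h libraries of all 3 young mice, so mouse and time cannot be told apart. Within young mouse 3 the median change of the members was 0.19.

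In the late comparison, which pools 9 libraries of 3 mice per cell type, most members lay above 0 h in the fit and none passed. This fit took the libraries of a mouse as independent, and fits with mouse as a block are given below. By edgeR, 0 of 35 members were called in LT, where 2.87% of all genes were, 0 in ST (1.57%) and 0 in MPP (0.534%). Unadjusted p was under 0.05 for 3 members in LT (2 higher), 7 in ST (6 higher) and 2 in MPP (both higher). Over all genes the share at such a p was 16.1%, 16.3% and 8.39%. The change was positive for 22 of 35 members in LT, 31 in ST and 31 in MPP, and the median log2 change was 0.19, 0.37 and 0.31, beside -0.44, -0.42 and -0.26 over all genes. Among the 10245 genes with at least 5 CPM, 34 of them members, the medians were 0.16, 0.39 and 0.38 for the members beside -0.40, -0.31 and -0.10 for all. In MPP the scaling moved these values: with DESeq2's size factors the median was 0.19 over the members, 24 of 35 of them positive, beside -0.38 over all genes. The interaction of LT with MPP, which compares their late changes, called 0 members and 0% of all genes. At an unadjusted p under 0.05 it had 0 members and 1.89% of all genes, and DESeq2 and limma voom called 0 members.

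Other models of the same late counts called a few members. With mouse as a block, edgeR called Psmd4 higher and Psma8 lower in LT (8.59% of all genes were called), Psmb5 higher and Psma8 lower in ST (8.04%), and Psma8 lower in MPP (4.92%). DESeq2 called Psmd4 in LT (6.89% of all genes), Psmb5 in ST (7.7%) and 0 members in MPP. Limma voom called Psmd4 higher and Psma8 lower in LT (9.22%) and Psmb5 higher in ST (7.54%). In MPP it called 24.3% of all genes and 13 members: Psma3, Psma5, Psma6, Psmb5, Psmb6, Psmc1, Psmc4, Psmc5, Psmd2, Psmd8, Psmd11 and Psmd12 higher, and Psma8 lower. Detected genes moved along with time: in LT they numbered 6241 to 11945 in the late libraries against 10101 to 12319 at 0 h, in ST 7788 to 12736 against 10599 to 12564, and in MPP 9890 to 13370 against 13253 to 13407. Their part in the result was not tested. Without the libraries under 8000 detected genes, the members' late median in LT was 0.05. That setting left no late library of young mouse 1 and only the 4 h one of young mouse 2. Their 0 h libraries stayed, so mouse and time cannot be told apart in that value.

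The summed macrophage markers (3 genes) had a median of 596 CPM in late LT libraries of young mice (26.1 to 1585) against 307 CPM at 0 h (3.83 to 504, 6 mice). In ST they had 627 CPM late (15.5 to 1649) against 226 CPM at 0 h (4.63 to 452), and in MPP 394 CPM late (99.9 to 912) against 198 CPM at 0 h (51.8 to 359). The 6 granule markers ranged from 50.5 to 65688 CPM late against 240 to 62289 CPM at 0 h in LT, from 485 to 66031 against 158 to 60918 in ST and from 157 to 78555 against 98.8 to 64447 in MPP. No marker of either list was at 0 throughout. The lists of T and NK, megakaryocyte, erythroid, progenitor and B cell markers had lower medians late. The 4 T and NK markers had a median of 9.18 CPM in late LT libraries (0 to 69.6, with Cd3g at 0 in all of them) against 129 CPM at 0 h (30.3 to 299). In ST they had 13.9 CPM late (0 to 68.9, Cd3g again at 0 throughout) against 155 CPM at 0 h (22.4 to 241), and in MPP 26.7 CPM late (13.7 to 63.2) against 191 CPM at 0 h (91.8 to 265). The 3 megakaryocyte markers had 16.5 CPM late (0 to 353) against 127 CPM at 0 h (35.3 to 239) in LT. They had 9.25 CPM late (0 to 33.9) against 68.1 CPM (50.4 to 104) in ST and 13.5 CPM late (3.95 to 37.0) against 84.6 CPM (36.8 to 168) in MPP. The 4 erythroid markers had 207 CPM late (25.6 to 819) against 749 CPM at 0 h (96.5 to 2130) in LT. In ST they had 239 CPM late (27.8 to 522) against 587 CPM (119 to 1128), and in MPP 50.7 CPM late (20.3 to 364) against 457 CPM (42.8 to 705). The 3 progenitor markers had 591 CPM late (208 to 1464) against 1199 CPM at 0 h (329 to 2543) in MPP, 421 CPM late (91.4 to 954) against 657 CPM (251 to 1448) in ST and 131 CPM late (38.3 to 462) against 232 CPM (151 to 332) in LT. The 4 B cell markers had 40.0 CPM late (5.31 to 259) against 144 CPM at 0 h (37.2 to 340) in LT. They had 102 CPM late (34.3 to 299, with Ms4a1 at 0 in all of them) against 158 CPM (54.6 to 249) in ST and 101 CPM late (47.0 to 153) against 144 CPM (47.0 to 246) in MPP. Kit, a marker of progenitors, had a median of 782 CPM late against 535 CPM at 0 h in ST, 732 against 508 CPM in MPP and 315 against 350 CPM in LT. The 6 stem cell markers had 408 CPM late against 379 CPM at 0 h in LT, 174 against 168 CPM in MPP and 293 against 447 CPM in ST. For all of these lists and Kit, late libraries were of young mice 1, 2 and 3 and 0 h libraries of all 6 mice. The sets of mice thus differ. In LT at 0 h the stem cell markers had 259, 499 and 1477 CPM in young mice 1, 2 and 3. Ranges of Kit and of the stem cell markers overlapped between the times. The part of any of these lists in the changes of the members was not tested. Late changes in young mouse 3, which had the fewest granule transcripts, are given below beside those of the other mice.

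The late changes are given by role. The 6 ATPases of the regulatory particle had a median log2 change of 0.47 in LT (6 of 6 positive), 0.36 in ST (5 of 6) and 0.38 in MPP (6 of 6). The 11 non-ATPase subunits had 0.26 in LT (9 positive), 0.37 in ST (11) and 0.33 in MPP (11). In the core, the alpha ring had 0.19 in LT (4 of 7), 0.57 in ST (7) and 0.28 in MPP (6), and the beta ring -0.01 (3 of 7), 0.20 (6) and 0.23 (6). The 3 chaperones had -1.36 in LT (0 positive), 0.52 in ST and 0.11 in MPP.

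Members whose late level lay on 1 side of 0 h in every young mouse were counted next. In LT 10 of 35 were higher late in all 3 mice (6.39% of all genes) and 8 were lower in all 3 (29.5%). In ST 12 were higher (7.18%) and 2 lower (32.4%), and in MPP 11 were higher (12.6%) and 4 lower (42.1%). Psmc5 and Psmc6, both ATPases, and Psmd11 were higher in all 3 mice in all 3 cell types. Psmd9 was lower in all 3 mice in all 3 cell types, and Psma7 in LT and MPP.

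**Figure D3:**
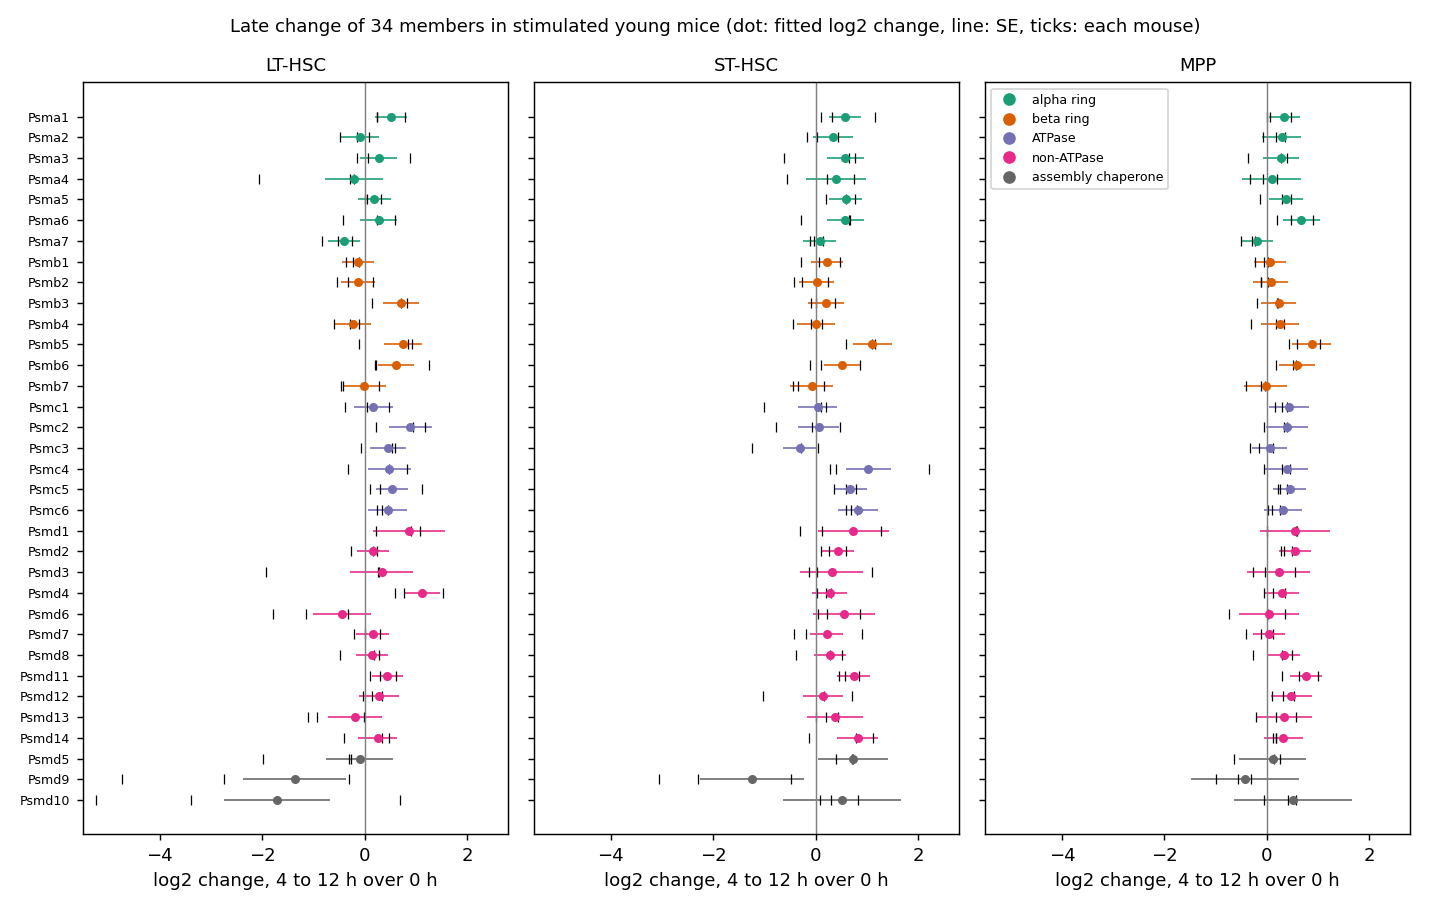
Late (4, 8 and 12 h) against 0 h log2 change of 34 members in young mice, 1 panel per cell type, coloured by role; dots are edgeR estimates, lines SE, and black ticks the change in each of 3 mice. Most dots lie right of 0, Psmd4 (LT, 1.12) and Psmb5 (ST, 1.10) farthest, and the LT chaperones Psmd9 and Psmd10 lie far left.

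Psmb5, the beta subunit with the chymotrypsin-like site, had the largest positive late change in ST and MPP. In ST its levels at 0, 0.5, 1, 2, 4, 8 and 12 h were 99.3, 131, 85.5, 241, 231, 192 and 215 CPM in young mouse 1. In young mouse 2 they were 154, 165, 182, 161, 332, 378 and 328 CPM, and in young mouse 3 103, 109, 86.6, 122, 171, 122 and 182 CPM. Each mouse was above its own 0 h level at 4, 8 and 12 h, young mouse 3 least. The late mean was 239 ± 96.6 CPM against 119 ± 30.8 CPM at 0 h (SD, n = 3 mice), without overlap of the mice's means. The log2 change was 1.10 ± 0.38 (edgeR, adjusted p = 0.111), and with mouse as a block it was 1.06 ± 0.27 (adjusted p = 0.0112). DESeq2 gave an adjusted p of 0.00729 and limma voom 0.0268.

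In MPP, Psmb5 stood at 231 ± 56.0 CPM late against 138 ± 2.17 CPM at 0 h, again without overlap. The log2 change there was 0.88 ± 0.38 (edgeR, adjusted p = 0.438, and 0.0601 with mouse as a block), while limma voom gave 0.000165. In LT it stood at 259 ± 125 CPM late against 161 ± 32.8 CPM at 0 h (log2 0.75 ± 0.38, adjusted p = 0.317). There young mouse 3 went the other way, with 142, 130 and 114 CPM at 4, 8 and 12 h against 139 CPM at 0 h. Without ligand, Psmb5 in ST read 134, 125, 186 and 232 CPM at 0, 2, 4 and 8 h in young mouse 4 and 165, 159, 155 and 164 CPM in old mouse 4. Young mouse 4 at 8 h was thus within the range of the stimulated young mice, and old mouse 4 read lowest at 4 h, by 155 against 165 CPM at 0 h. The change with ligand minus that without, over 2, 4 and 8 h, was 0.54 ± 0.46 in ST (adjusted p = 1).

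Psmd4, the subunit that receives ubiquitin chains on the regulatory particle, had the largest positive late change in LT. Its LT levels at the 7 times were 88.7, 191, 96.9, 53.4, 222, 225 and 343 CPM in young mouse 1. In young mouse 2 they were 100.3, 132, 186, 153, 83.7, 254 and 238 CPM, and in young mouse 3 107, 67.3, 118, 150, 147, 179 and 164 CPM. Of the 9 late libraries only the 4 h one of young mouse 2 was below its 0 h level. The late mean was 206 ± 51.5 CPM against 98.6 ± 9.19 CPM at 0 h, without overlap. The log2 change was 1.12 ± 0.36 (edgeR, adjusted p = 0.0689) and with mouse as a block 1.12 ± 0.34 (adjusted p = 0.0316). DESeq2 gave 0.00353 and limma voom 0.0399.

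The late change of Psmd4 was 0.27 in ST (adjusted p = 0.899) and 0.29 in MPP (adjusted p = 1), and that in LT minus that in MPP was 0.83 ± 0.47 (adjusted p = 1). In LT without ligand it read 156, 111, 164 and 236 CPM at 0, 2, 4 and 8 h in young mouse 4 and 126, 194, 175 and 217 CPM in old mouse 4. These averaged 183 ± 17.5 CPM over 2 to 8 h against 141 ± 21.7 CPM at 0 h (log2 0.55 ± 0.37, adjusted p = 0.748), without overlap of the 2 mice. Higher values at 8 h than at 0 h were thus seen with ligand and without.

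Psmd11, a lid subunit, was higher late in each young mouse and cell type. In MPP its levels at the 7 times were 94.9, 101, 110, 168, 319, 172 and 125 CPM in young mouse 1. They were 141, 154, 132, 225, 282, 181 and 199 CPM in young mouse 2, and 162, 140, 185, 250, 219, 166 and 210 CPM in young mouse 3. Each mouse was highest at 2 or 4 h. The late mean in MPP was 208 ± 11.4 CPM against 132 ± 34.1 CPM at 0 h, without overlap (log2 0.77 ± 0.32, adjusted p = 0.393, limma voom 3.53e-05). ST had 196 ± 7.40 CPM late against 125 ± 15.5 CPM at 0 h, without overlap (log2 0.74 ± 0.31, adjusted p = 0.211), and in LT 209 ± 26.8 against 162 ± 25.1 CPM (log2 0.45 ± 0.31, adjusted p = 0.58). Without ligand Psmd11 in MPP read 113, 132, 204 and 275 CPM in young mouse 4 and 133, 158, 187 and 284 CPM in old mouse 4. Both unstimulated mice thus reached the levels of the stimulated ones (2 to 8 h against 0 h: log2 0.95 ± 0.41, adjusted p = 0.515).

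**Figure D4:**
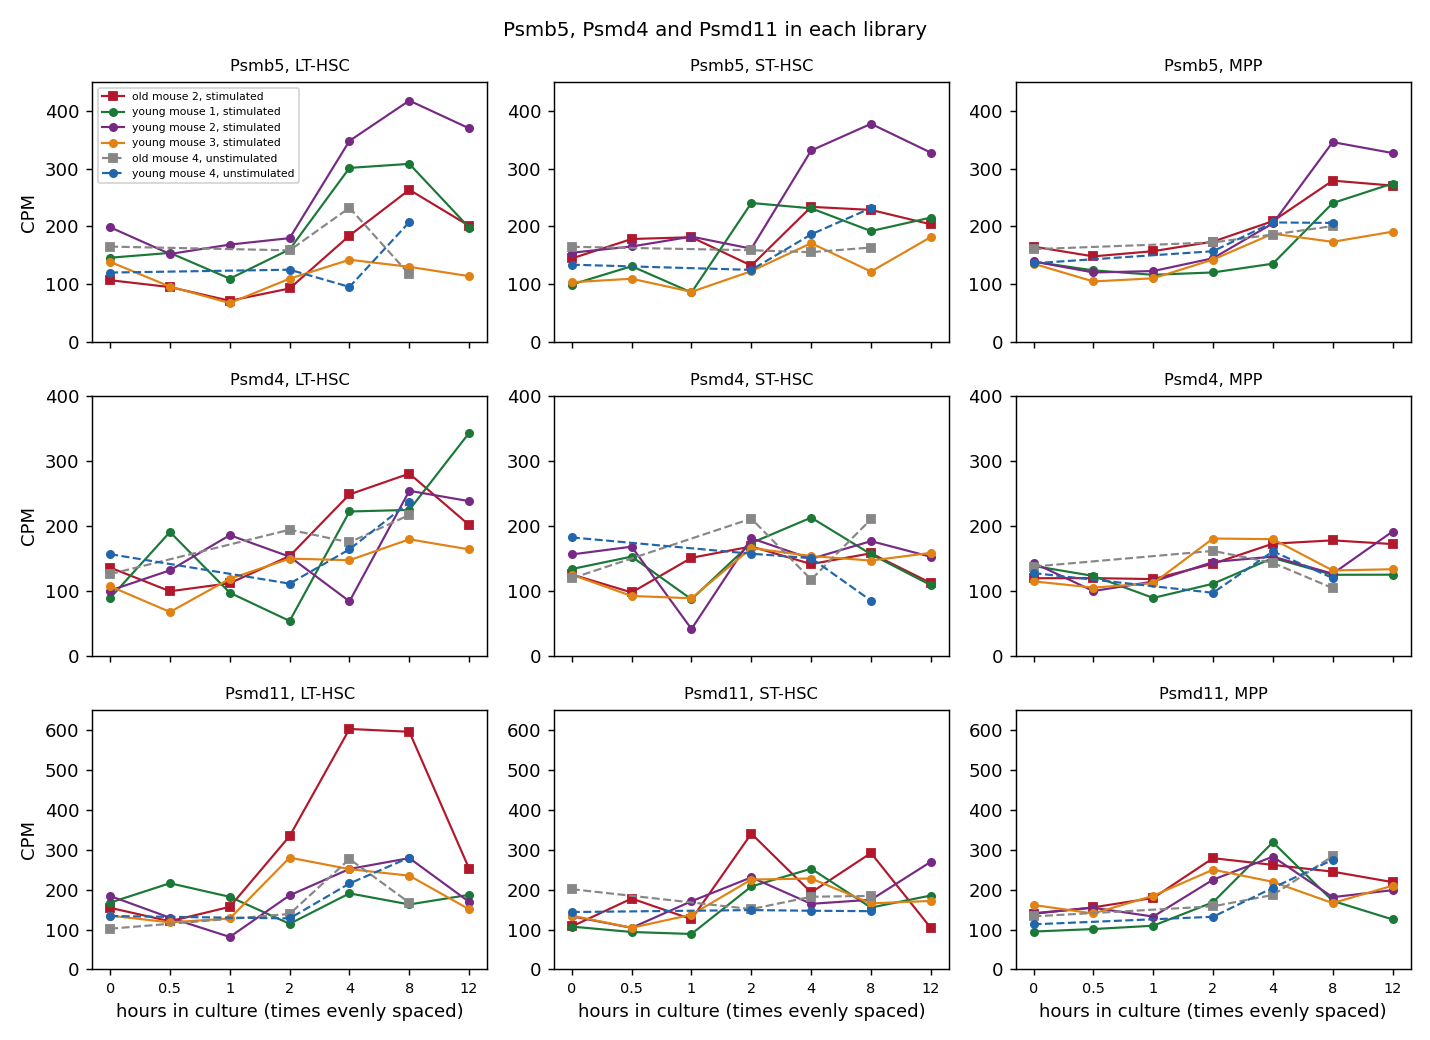
Levels in CPM of Psmb5, Psmd4 and Psmd11 by time in LT, ST and MPP, 1 line per mouse, solid with ligand and dashed without; times are evenly spaced. Psmb5 in ST is at 182 to 328 CPM at 12 h in the young stimulated mice, against 99.3 to 154 CPM at 0 h, and Psmd11 in MPP is as high without ligand (275 and 284 CPM at 8 h) as with it.

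The sequences upstream of these 3 genes, and of Psmb6, are shown because the letters of known control elements can be read in them. RefSeq promoter windows (GRCm38.p6, not the mm9 build of the counts) were found for 29 members, 31 windows in all. The motif TGACNNNGC, the core of the antioxidant response element that also takes Nfe2l1, the factor of the proteasome recovery response, was in 5 of the 31 (16.1%, against 10.2% of all 32851 windows). CCAAT was in 12 (38.7% against 33.8%), and CCGGAAG, an ETS core, in 10 (32.3% against 6.91%). Both strands were searched in 250 bases before and 50 after each start, and none of the matches printed here overlap. A match is a description of letters, not a binding site.
Bases upstream of the start are printed 5′ to 3′ on the gene's strand, with the matches in capitals. Psmb5 is at chr14:54618023-54618245 (minus strand, 250 to 28 bases before the start, without the last 27 bases, which an annotated exon covers), Psmb6 at chr11:70525107-70525356 (plus), Psmd4 at chr3:95042615-95042864 (minus) and Psmd11 at chr11:80428365-80428614 (plus).
Psmb5: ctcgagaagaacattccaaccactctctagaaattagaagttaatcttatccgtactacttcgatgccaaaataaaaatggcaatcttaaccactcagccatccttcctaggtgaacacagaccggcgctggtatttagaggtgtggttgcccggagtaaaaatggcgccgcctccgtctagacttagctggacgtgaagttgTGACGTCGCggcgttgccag
Psmb6: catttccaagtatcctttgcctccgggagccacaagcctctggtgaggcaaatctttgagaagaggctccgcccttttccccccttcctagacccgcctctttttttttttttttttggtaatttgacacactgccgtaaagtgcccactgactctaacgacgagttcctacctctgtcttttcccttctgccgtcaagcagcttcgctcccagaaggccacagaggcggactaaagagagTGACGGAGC
Psmd4: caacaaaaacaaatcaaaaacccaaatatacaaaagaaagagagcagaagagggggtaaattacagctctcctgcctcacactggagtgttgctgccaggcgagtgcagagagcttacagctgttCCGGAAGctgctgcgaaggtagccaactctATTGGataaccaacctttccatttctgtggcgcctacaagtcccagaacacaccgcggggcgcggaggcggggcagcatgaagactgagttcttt
Psmd11: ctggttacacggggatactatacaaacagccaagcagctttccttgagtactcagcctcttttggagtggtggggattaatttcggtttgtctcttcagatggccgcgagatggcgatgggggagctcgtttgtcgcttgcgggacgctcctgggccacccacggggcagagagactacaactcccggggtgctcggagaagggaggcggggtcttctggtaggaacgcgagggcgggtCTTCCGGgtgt
Psmb5 and Psmb6, both catalytic beta subunits, hold TGACNNNGC at 47 and 9 bases before the start. Psmd4 holds CCGGAAG at 125 bases and CCAAT, on the other strand, at 95 bases. Psmd11 holds CCGGAAG on the other strand at 11 bases.

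Psmb6, the catalytic subunit with the caspase-like site, had late log2 changes of 0.61 (LT), 0.51 (ST) and 0.58 (MPP), with adjusted p of 0.44, 0.563 and 0.799. In MPP it read 187, 161, 127, 175, 165, 219 and 266 CPM at the 7 times in young mouse 1. Young mouse 2 read 224, 144, 140, 277, 331, 310 and 356 CPM, and young mouse 3 177, 177, 213, 248, 223, 281 and 252 CPM. All 3 mice were above their 0 h level at 8 and 12 h. Psmb7, with the trypsin-like site, had late levels near those at 0 h: 60.3 ± 6.36 CPM late against 63.3 ± 16.0 CPM at 0 h in LT, 56.9 ± 14 against 61.6 ± 21.5 in ST and 65.0 ± 16.4 against 72.7 ± 9.78 in MPP (log2 -0.01, -0.08 and -0.03, each changing sign in some alternative).

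In the alpha ring, Psma6 in MPP had its highest levels at 12 h. It read 203, 185, 177, 161, 144, 249 and 346 CPM in young mouse 1, 228, 199, 131, 172, 206, 337 and 450 CPM in young mouse 2, and 174, 158, 160, 167, 200, 356 and 492 CPM in young mouse 3. Old mouse 2 read 206, 254, 174, 246, 211, 337 and 481 CPM. Every one of these 4 mice was highest at 12 h, and the unstimulated mice had 197 and 187 CPM at 8 h against 233 and 226 CPM at 0 h. The late mean of the young mice was 309 ± 55.1 CPM against 202 ± 27.1 CPM at 0 h, without overlap. Psma7, the most abundant member per kilobase, was lower: 267 ± 83 CPM late against 369 ± 110 CPM at 0 h in LT and 263 ± 55.6 against 328 ± 63.9 CPM in MPP (log2 -0.40 and -0.19, adjusted p 0.665 and 1). In ST it had 289 ± 84.5 against 292 ± 107 CPM.

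Of the ATPases, Psmc2 in LT had 175 ± 37.0 CPM late against 101 ± 34.4 CPM at 0 h, without overlap (log2 0.89 ± 0.42, adjusted p = 0.274). Psmc4 in ST had 194 ± 57.2 CPM late against 99.4 ± 48.6 CPM at 0 h, with overlap (log2 1.03 ± 0.43, adjusted p = 0.206). That value leaned on young mouse 1, which had 50.9 CPM at 0 h and 364, 169 and 219 CPM at 4, 8 and 12 h. Psmc1 had 170 ± 42.2 CPM late against 150 ± 21.5 CPM at 0 h in LT, 170 ± 70.7 against 173 ± 12.8 CPM in ST and 218 ± 18.8 against 180 ± 29.0 CPM in MPP. All of its groups overlapped.

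Of the non-ATPases, Psmd2, the partner of Psmd1 in the scaffold, had 379 ± 51.1 CPM late against 281 ± 35.3 CPM at 0 h in MPP, without overlap (log2 0.55 ± 0.32, adjusted p = 0.753). Psmd1 had 241 ± 35.8 CPM late against 181 ± 15.5 CPM at 0 h in MPP, also without overlap. In LT it had 253 ± 87.6 against 145 ± 35.0 CPM and in ST 211 ± 91.6 against 136 ± 20.2 CPM, with overlap, and its log2 changes had SE of 0.68 to 0.70. Psmd14 had 164 ± 2.26 CPM late against 145 ± 2.12 CPM at 0 h in MPP, without overlap, and 151 ± 60.3 against 91.3 ± 5.09 CPM in ST. Psmd12, a lid subunit, had 150 ± 21.0 CPM late against 119 ± 4.32 CPM at 0 h in MPP, without overlap, and 157 ± 43.2 against 149 ± 62.9 CPM in ST. Psmd6 in LT had the largest negative late change of the non-ATPases (log2 -0.44) and was lower late in all 3 young mice.

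The chaperones varied far more between libraries. Psmd9 in LT read 85.7, 52.7, 42.7, 0.722, 0, 0.683 and 19.3 CPM at the 7 times in young mouse 1. Young mouse 2 read 76.6, 39.1, 33.5, 4.63, 25.5, 56.7 and 0 CPM, and young mouse 3 51.9, 37.6, 20.9, 24.9, 44.3, 31.1 and 53.4 CPM. Each mouse was below its 0 h level at 0.5, 1 and 2 h, and young mouse 3 was back at it by 12 h. The late mean was 25.7 ± 18.2 CPM against 71.4 ± 17.4 CPM at 0 h, without overlap (log2 -1.36 ± 1.01, adjusted p = 0.629). ST had 20.9 ± 7.66 against 48.4 ± 22.0 CPM and in MPP 28.9 ± 9.90 against 41.8 ± 9.72 CPM. Without ligand Psmd9 in LT read 75.3, 42.6, 30.1 and 14.4 CPM in young mouse 4 and 67.3, 58.5, 32.5 and 59.2 CPM in old mouse 4. Both stood below their own 0 h level at all 3 later times. Psmd10 in LT was at 0 in 4 libraries of young mice 1 and 2 from 2 h on, and read 41.6, 16.2 and 46.0 CPM late against 19.1 CPM at 0 h in young mouse 3.

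Psma8, an alpha subunit of the testis, was at 0 in 47 of 108 libraries, so counts are given. In LT at 0 h it had 0, 331 and 67 counts in young mice 1, 2 and 3, and late it had 0 in every library of mice 1 and 2 and 2, 1 and 33 in mouse 3. In ST it had 151, 12 and 29 counts at 0 h, and late 8 of 9 libraries were at 0 and 1 had 13. In MPP it had 98, 27 and 16 counts at 0 h, and late 0, 0 and 0 in mouse 1, 0, 0 and 13 in mouse 2 and 4, 6 and 16 in mouse 3. Old mouse 2 had other late counts: 123 at 0 h and 0, 17 and 151 at 4, 8 and 12 h in LT, 52 and then 0, 0 and 111 in ST, and 76 and then 19, 0 and 31 in MPP. By edgeR in the young mice the adjusted p was 0.115 in LT, 0.0821 in ST and 0.827 in MPP, and with mouse as a block 0.0357, 0.00138 and 0.023. Psmb11 was measured in too few counts to be tested in the young mice.

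Without ligand, over 2, 4 and 8 h against 0 h in young mouse 4 and old mouse 4, 0 of 36 members passed in LT (edgeR, 0.139% of 14401 genes), ST (0.208%) and MPP (0.174%). Unadjusted p was under 0.05 for 1, 1 and 3 members, and for 8.71%, 10.2% and 8.42% of all genes. DESeq2 called 0, and limma voom called 0 in LT and ST and 3 in MPP (6.79% of all genes). The median log2 change was 0.01 in LT, 0.12 in ST and 0.31 in MPP, beside -0.06, -0.07 and -0.14 over all genes. The signs of the LT and ST medians depended on scaling: with DESeq2's size factors they were -0.16 and -0.05. The size of the MPP median did too: it was 0.14 with those factors and 0.06 with library size alone. By mouse, from log2(CPM + 1), the MPP median was -0.02 in young mouse 4 and -0.04 in old mouse 4. Apart from Psmb11, which had few counts, Psmd11 had the largest positive change in LT, at 201 ± 9.56 CPM over 2 to 8 h against 118 ± 22.4 CPM at 0 h (SD, n = 2 mice, log2 0.93 ± 0.41, adjusted p = 0.492), and in MPP, at 207 ± 4.13 against 123 ± 14.1 CPM. In ST Psmd5 had the largest positive change, at 126 ± 65.0 against 58.9 ± 2.36 CPM (log2 1.26 ± 0.59, adjusted p = 0.448). Psmc4 in ST had 151 ± 1.58 CPM over 2 to 8 h against 104 ± 6.99 CPM at 0 h, and Psmc3 170 ± 19.5 against 232 ± 0.888 CPM, both without overlap.

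The change with ligand was then set against the change without, each mouse against its own 0 h. By edgeR 0 of 36 members differed in LT (0.0278% of all genes), ST (0.0486%) or MPP (0.0833%). Unadjusted p was under 0.05 for 2 members in LT, 2 in ST and 1 in MPP, and for 3.03%, 3.88% and 2.47% of all genes. DESeq2 called 0, and limma voom called 1, Psmb11 in MPP (lower, 2.49% of all genes). The difference was positive for 32 of 36 members in LT, 31 in ST and 22 in MPP, with medians of 0.37, 0.27 and 0.08 beside -0.02, 0.07 and 0.17 over all genes (in MPP -0.012 beside 0.08 with DESeq2's size factors). In LT 8 members were higher in all 4 stimulated mice than in both unstimulated ones (Psma1, Psmb1, Psmb2, Psmb3, Psmb4, Psmb6, Psmc2 and Psmc3), as 4.76% of all genes were, and 0 were lower (10.3%). In ST 6 were higher (8.11%) and 2 lower (9.47%), and in MPP 5 were higher (13.7%) and 2 lower (11.8%). Among the positive differences were Psmb3 in LT at 0.93 ± 0.44, Psmc2 in LT at 0.88 ± 0.44, Psma6 in ST at 1.14 ± 0.43 and Psmd1 in ST at 1.46 ± 0.88 (adjusted p 1, 1, 0.877 and 1). The 3 chaperones were all negative in ST (median -0.87) and in MPP (median -0.38), and 2 of the 3 were in LT (median -0.24). In MPP the differences ran from -6.22 for Psmb11 to 2.82 for Psma8, both with few counts. The 0 h libraries of the stimulated mice carry both this change and the late one, so the 2 are not independent of each other.

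Summed over the members, the log2 change over 2 to 8 h in LT was 0.73 in old mouse 2 and 0.15, 0.15 and 0.21 in young mice 1, 2 and 3 with ligand, against -0.17 in old mouse 4 and -0.06 in young mouse 4 without. In ST it was 0.28 in old mouse 2 and 0.25, 0.34 and 0.22 in the young mice, against -0.12 and -0.03. In MPP it was 0.27 in old mouse 2 and -0.11, 0.08 and 0.22 in the young mice, against -0.01 and 0.03. The courses did not overlap in LT and ST and overlapped in MPP. Stimulated libraries were also the deeper ones, as given above, and the part of depth was not tested.

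**Figure D5:**
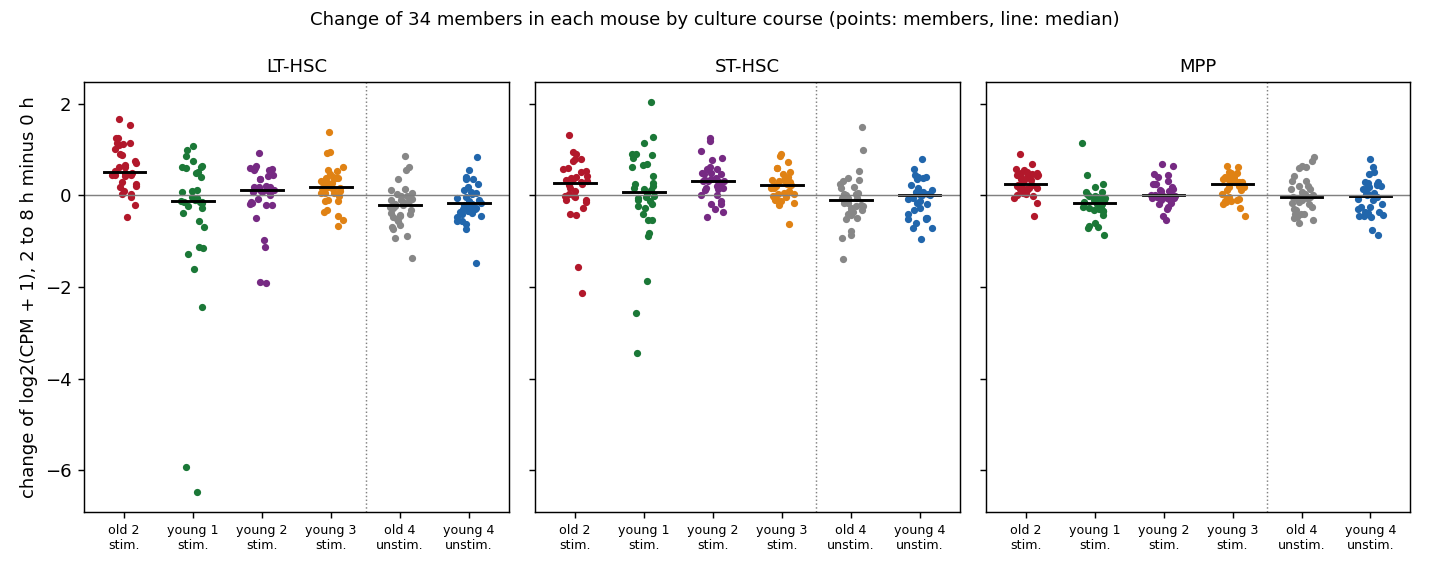
Change over 2, 4 and 8 h against 0 h of 34 members in log2(CPM + 1), 1 column per mouse, stimulated mice left and unstimulated mice right in each cell type. The column of old mouse 2 LT sits highest, and the unstimulated LT columns centre below 0. Over all 36 members the median in LT of stimulated young mouse 1 was also below 0, at -0.08.

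Old mouse 2 was the only old mouse with ligand, so its values carry no test. In LT the summed level was 5000.2, 4460, 4154, 6429, 8235, 10287 and 7262 CPM at 0, 0.5, 1, 2, 4, 8 and 12 h. At 8 h, 33 of the 34 members other than Psma8 and Psmb11 were above 0 h, where 37.8% of all genes were, with a median log2 change of 0.90. The exception was Psmd9, at -0.75. Psmd11 was the highest, with 154, 121, 157, 334, 602, 595 and 252 CPM over the course. In MPP of the same mouse 33 of 34 were above 0 h at 12 h (36.4% of all genes), with a median of 0.51, and in ST 22 of 34 were (29% of all genes), with a median of 0.39. In LT of this mouse 6 near-empty deposited libraries were left out of the sums.

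Other genes of the pathway were read from 6 lists with 32 measured genes: the immunoproteasome, activators and an inhibitor of the core, assembly factors of the core, an assembly factor and further partners of the regulatory particle, ubiquitin shuttles with the extraction machinery, and the recovery factor with its processing enzymes. Late with ligand, 0 of these 32 passed in LT, ST or MPP (edgeR), where 2.87%, 1.57% and 0.534% of all genes did. Unadjusted p was under 0.05 for 5, 2 and 5 of the 32, and for 16.1%, 16.3% and 8.39% of all genes. With mouse as a block 3 were called in LT (8.59% of all genes): Zfand5, a zinc finger protein that binds the proteasome, and Nfe2l2, a stress factor related to Nfe2l1, higher, and the activator Psme3 lower. Their log2 changes in that fit were 1.51, 1.09 and -2.83, with adjusted p of 0.0423, 0.0364 and 0.0468. The block called 0 in ST and 1 in MPP (4.92% of all genes), the extraction ATPase Vcp (higher, 0.77, adjusted p = 0.0462). DESeq2 called 2, 1 and 0 of the 32 in LT, ST and MPP (in LT 6.89% and in ST 7.7% of all genes). Limma voom called 3, 0 and 11 (in LT 9.22% and in MPP 24.3% of all genes). For the change with minus without ligand 0 passed in any cell type (edgeR, unadjusted 3, 1 and 0, beside 3.03%, 3.88% and 2.47% of all genes). The block, DESeq2 and limma voom called 0.

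At 2 h, 0 genes of the lists passed in LT and ST (edgeR, unadjusted 3 in each) and 1 did in MPP (unadjusted 5). Of all genes 0.307%, 0.307% and 0.263% passed in LT, ST and MPP. Over all genes the share at an unadjusted p under 0.05 was 9.54%, 6.80% and 3.19%. The gene that passed in MPP was Nfe2l2, with 373 ± 132 CPM at 2 h against 106 ± 29.0 CPM at 0 h (adjusted p = 0.0351). With mouse as a block Nfe2l2 and Zfand5 were called higher at 2 h in LT (0.738% of all genes) and ST (0.804%), and Nfe2l2 alone in MPP (0.636%). DESeq2 called 2, 3 and 3 of the 32 in LT, ST and MPP (4.4%, 2.75% and 1.12% of all genes), and limma voom 0, 3 and 9 (in ST 3.4% and in MPP 12%). At 8 h 0 passed in LT, ST and MPP (unadjusted 3, 2 and 2, beside 11.3%, 7.91% and 4.15% of all genes), and with the block 0. DESeq2 then called 0, 1 and 0 (in ST 3.69%) and limma voom 1, 0 and 6 (in LT 1.8% and in MPP 12.9%). Without ligand 0 passed in LT (unadjusted 8), 1 in ST (unadjusted 8) and 1 in MPP (unadjusted 6), where 8.71%, 10.2% and 8.42% of all genes had such an unadjusted p. The share of all genes that passed there was 0.139%, 0.208% and 0.174%. With the block 3 were called in LT (0.75% of all genes) and ST (0.854%), Zfand5 and Nfe2l2 higher and Psmb8 lower, and 2 in MPP (0.854%), Zfand5 higher and Psmb8 lower. DESeq2 called 3, 4 and 3 of the 32 in LT, ST and MPP (2.26%, 2.96% and 2.35%), and limma voom 3, 3 and 7 (3.1%, 3.31% and 6.79%). In ST Nfe2l2 rose to 396 ± 4.15 CPM over 2 to 8 h against 103 ± 13 CPM at 0 h (adjusted p = 0.0225). In MPP Psmb8, the immunoproteasome partner that replaces Psmb5, fell to 103 ± 28.2 CPM over 2 to 8 h against 396 ± 76.5 CPM at 0 h (adjusted p = 0.0209).

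The immunoproteasome genes did not pass late with ligand (edgeR). In LT Psmb8 had 210 ± 84.7 CPM late against 358 ± 71.8 CPM at 0 h (adjusted p = 0.227), Psmb9 42.7 ± 28.6 against 113 ± 23.8 CPM and Psmb10 47.6 ± 20.9 against 88.5 ± 47.2 CPM. In MPP Psmb8 had 276 ± 86.7 CPM late against 498 ± 39.6 CPM at 0 h (adjusted p = 0.361). Psmb5 had a positive late change in each cell type, and its immune counterpart Psmb8 a negative one: -0.71 in LT, -0.39 in ST and -0.78 in MPP. The median over all genes was -0.44, -0.42 and -0.26, so Psmb8 in ST lay near it. Neither gene passed by edgeR without the block. Nfe2l1 had 139 ± 9.02 CPM late against 63.2 ± 20.4 CPM at 0 h in LT (log2 1.2 ± 1.02, adjusted p = 0.714).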

How the data were processed

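Libraries of LT, ST and MPP were made with SMART-seq2, per the labels' protocols. The authors deposited 1 table of expected counts by gene symbol; RSEM (its version is not given) and mm9 are named in the submitters' processing notes. Whole numbers, within 1e-06, made up 89.5% of the values. Of 127 libraries, 6 with 7 to 41 counts (under 1000) were left out; repeats were summed to 108 libraries (12 from several) and rounded to whole counts. CPM are counts scaled to a library total of 1e6. The reads carry no molecular identifiers.

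The test was edgeR's 2-sided quasi-likelihood F test (edgeR 4.0.16 under R 4.3.3, with filterByExpr and TMM), adjusted by Benjamini-Hochberg over all genes and called at 0.05. SE were taken from the log2 change and F. The fits held 63 libraries and 13678 genes (young mice 1 to 3), 72 and 14401 (both courses), 12 and 11568 (cell types at 0 h) and 18 and 12983 (ages at 0 h). A number marks the same mouse in the labels: residuals within young mice 1, 2 and 3 correlated at a mean r of 0.192, 0.0684 and 0.408, and with other mice at -0.127, -0.0518 and -0.208. The main fits held no term for mouse and took its libraries as independent, so their SE and p leave this correlation out. Mouse as a block was therefore fitted as an alternative and is given where it changed a call. Other alternatives were DESeq2 1.42.0, weighted voom of limma 3.58.1 (a quality weight per sample), size factors as in DESeq2, a filter of 5 CPM or none, the first usable repeat and leaving out each mouse. After seeing the data, scaling by library size alone and leaving out libraries under 8000 detected genes were added. The fits were also run on simulated counts with planted changes. Those changes were larger than the changes of most members and the counts held no mouse effect, so these runs do not show the power for small changes. Python 3.11.15 with matplotlib 3.10.9 drew the figures.

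Picked for naming were members that passed, the 2 largest positive and 2 largest negative changes per comparison (at least 10 CPM, same sign in every mouse) and a set of catalytic, scaffold, ATPase and lid genes. Not every change so picked is printed, negative ones among them. Psmb6 among the printed sequences, Psma6 by time, Psmd9 by library, Psmd10, Psma8, Psmb8, Psmb9, Psmb10 and Nfe2l1 were chosen after their values were seen. Members and lists were chosen with earlier results of these data known. Pathway genes named only from other fits were also chosen so. Another list fixed for the pathway is not reported here, and no count of pathway genes covers it.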

Additional observations from a re-analysis of the deposited data

Results flagged for a closer look

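At 0 h, 3 of 106 groups of 4 young mice held 1 library far from the other 3, where chance gives about 1 group in 20. Psmd12 in LT of young mouse 3 was at 102.5 CPM, and the other mice were at 159 to 165 CPM. Psmd13 in ST of young mouse 4 was at 183 CPM, and the others at 86.2 to 92.7 CPM. Psmb3 in MPP of young mouse 3 was at 119.7 CPM, and the others at 157 to 161 CPM.

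In LT and in ST the summed level of the 36 members over 2 to 8 h was above 0 h in every stimulated mouse and below it in every unstimulated mouse. In LT the log2 change was 0.15 to 0.73 with ligand against -0.17 to -0.06 without, a difference of means of 0.42. In ST it was 0.22 to 0.34 against -0.12 to -0.03, a difference of 0.35. Neither difference was tested. Psma6 in ST had log2 changes of 0.17 to 0.82 in the stimulated mice against -0.87 to -0.29 in the unstimulated ones. The fitted difference for Psma6 was 1.14 (edgeR, adjusted p = 0.877). Course and mice cannot be told apart.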

How the results depend on the processing

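The comparisons rest on few mice: 3 young mice per time with ligand, 2 mice without and 1 old mouse with ligand. Under the alternatives, 271 counts of called members matched the main count and 14 did not. Of the medians over members, 229 moved by less than 1 SD between mice and 56 by more. That SD rests on few mice and ran from 0.0078 (MPP unstimulated) to 0.24 (LT course difference). A shift of a given size can therefore fall on either side, by comparison. For single named members, 1376 values kept their direction and side of the threshold, 17 newly passed and 47 turned sign. Where a value moved, the cause was not tested. No paired fit was made for ages, since a mouse has 1 age. The replicate block changed the 3 late counts below and no other count of members.

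With DESeq2 the median was 0.39 (young LT 8 h), 0.21 (young ST 2 h), -0.16 (LT unstimulated), -0.053 (ST unstimulated), 0.14 (MPP unstimulated). With DESeq2 the members called were 2 (young LT 8 h), 1 (young LT late), 1 (young ST late). With limma voom the median was 0.24 (young LT 8 h), 0.26 (young ST 2 h), 0.23 (MPP unstimulated). With limma voom the members called were 2 (young LT late), 1 (young ST late), 2 (young MPP 2 h), 5 (young MPP 8 h), 13 (young MPP late), 3 (MPP unstimulated), 1 (MPP course difference). With DESeq2's size factors the median was 0.39 (young LT 8 h), 0.21 (young ST 2 h), -0.16 (LT unstimulated), -0.053 (ST unstimulated), 0.14 (MPP unstimulated). Without a filter the median was 0.38 (young LT 8 h), -0.036 (LT unstimulated), 0.27 (MPP unstimulated). At 5 CPM the median was 0.22 (young LT 8 h). With 1 repeat the median was 0.42 (young LT 8 h), 0.28 (young LT late), 0.050 (LT minus MPP late), 0.30 (MPP unstimulated), -0.20 (young LT vs MPP at 0 h), -0.024 (young LT vs ST at 0 h). With mouse as a replicate block the median was 0.25 (MPP unstimulated). With mouse as a replicate block the members called were 2 (young LT late), 2 (young ST late), 1 (young MPP late). With library size alone the median was 0.29 (young LT 8 h), 0.23 (young ST 2 h), 0.35 (young ST 8 h), -0.13 (young MPP 2 h), -0.20 (LT unstimulated), -0.10 (ST unstimulated), 0.063 (MPP unstimulated). Without libraries under 8000 genes the median was 0.38 (young LT 2 h), -0.077 (young LT 8 h), 0.053 (young LT late), 0.42 (young ST 2 h), -0.035 (LT unstimulated), 0.27 (MPP unstimulated). In young LT with ligand this setting kept only young mouse 3 at 8 and 12 h, while all 0 h libraries stayed. Mouse and time cannot be told apart there. Leaving out 1 mouse at a time, the medians ranged 0.12 to 0.36 (young LT 2 h), 0.11 to 0.39 (young LT 8 h), 0.19 to 0.29 (young LT late), 0.34 to 0.43 (young ST 2 h), 0.37 to 0.54 (young ST 8 h), 0.084 to 0.29 (young MPP 2 h), -0.062 to 0.0066 (LT unstimulated), 0.0065 to 0.24 (ST unstimulated), 0.20 to 0.31 (MPP unstimulated), -0.20 to 0.15 (old vs young LT at 0 h). The members called then ranged from 0 to 1 (young LT late). Signs turned: with DESeq2, Psmb7 0.026 (young LT late), Psmc1 -0.023 (young ST late). With limma voom, Psmb7 0.057 (young MPP late), Psmd10 0.40 (LT course difference), Psmd9 0.069 (MPP course difference), Psmd10 0.12 (old vs young LT at 0 h). With DESeq2's size factors, Psmb7 0.032 (young LT late), Psmc1 -0.028 (young ST late). Without a filter, Psmb7 0.038 (young LT late), Psmb7 0.067 (young MPP late). At 5 CPM, Psmb7 0.039 (young MPP late). With 1 repeat, Psmb7 0.020 (young LT late), Psmd2 -0.030 (young LT late), Psma7 -0.022 (young ST late), Psmd12 -0.12 (young ST late). With mouse as a replicate block, Psmb7 0.019 (young LT late). With library size alone, Psma7 -0.014 (young ST late), Psmc1 -0.069 (young ST late). Without libraries under 8000 genes, Psma6 0.16 (young LT 2 h), Psmd14 -0.16 (young LT late), Psmc1 -0.080 (young ST late), Psmb7 0.086 (young MPP late), Psmc6 -0.058 (LT minus MPP late), Psmd10 0.34 (LT course difference). Leaving out mice, signs turned within Psma6 -0.39 to 0.085 (young LT 2 h), Psmb7 -0.22 to 0.19 (young LT late), Psmc1 -0.0051 to 0.37 (young LT late), Psmc3 -0.17 to 0.0051 (young ST 2 h), Psmb7 -0.20 to 0.14 (young ST late), Psmc1 -0.14 to 0.31 (young ST late), Psmd12 -0.43 to 0.72 (young ST late), Psmd9 -0.55 to 0.0030 (young MPP 8 h), Psma7 -0.20 to 0.028 (young MPP 8 h), Psmb7 -0.10 to 0.14 (young MPP late), Psmd1 -1.21 to 0.038 (ST unstimulated), Psmd9 -1.0 to 0.12 (LT course difference), Psmd10 -1.06 to 0.74 (LT course difference), Psmd9 -0.72 to 0.68 (MPP course difference), Psma8 -0.019 to 1.65 (old vs young LT at 0 h), Psmd1 -0.060 to 0.80 (old vs young LT at 0 h), Psmd10 -0.61 to 0.13 (old vs young LT at 0 h), Psmd10 -2.56 to 0.35 (old vs young ST at 0 h).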
